A study of Homo sapiens with 62 samples.

Results

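The replication-dependent histone genes are the genes of the HIST1 to HIST4 clusters, which supply the proteins that package newly copied DNA. All gene rows with a symbol that starts with HIST1H, HIST2H, HIST3H or HIST4H were taken, except 13 whose symbol marks a pseudogene. This gave 76 of the 55040 rows of the deposited tables and, after a repeated symbol was reduced to 1 row, 75 genes: 6 of class H1, 17 of H2A, 23 of H2B, 14 of H3 and 15 of H4. Because the rule went by symbol alone, the H2B members include HIST2H2BA, HIST2H2BB, HIST2H2BC, HIST2H2BD and HIST3H2BA. For these the GENCODE gene annotation lists a pseudogene transcript and no protein-coding one. They count as members throughout, but none of them was tested between the sets. The cells were GM12878, a B-lymphoblastoid cell line immortalised with Epstein-Barr virus. All libraries compared here were made in the same way, with SMARTer amplification of cDNA from polyA RNA, Nextera tagging and Illumina sequencing, per the labels. They were parts, called splits, of pools of 10 cells, each pool divided into 10 parts. The labels give no treatment, and no genotype other than the line, so the groups share both.

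Of the 62 samples of the series 20 were analysed, in 2 sets of 10. The numbered set holds splits 1 to 10, and the unnumbered set holds splits 232, 233 and 246 to 253, known by the number of their library alone. The titles of 9 unnumbered splits (all but 247), and of none of the numbered ones, say that a newer record has replaced them, and the notes with these 9 warn that their description may be out of date. That each set is a single pool is not stated in the labels, so p-values measure the spread between splits, which may be technical. Because pool, experiment number and set go together, they cannot be told apart. In bulk RNA of a few cells, fewer cells in S phase and less histone RNA per cell cannot be told apart either.

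Core histones H2A, H2B, H3 and H4 form the nucleosome, around which DNA is wound, and the linker histone H1 binds the DNA where it enters and leaves. Most genes of the clusters are read during S phase, and their mRNAs end in a conserved stem-loop in place of a polyA tail. The stem-loop is bound by SLBP, the stem-loop binding protein, and the mRNA is cut shortly after it. Some of these genes also give polyadenylated mRNA by use of a signal farther downstream.

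The stem-loop is shown for 5 members because it marks the place where the usual histone mRNA ends. Capitals mark the 16 letters of the histone stem-loop consensus, searched in transcripts of GENCODE 29.

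HIST1H2AI: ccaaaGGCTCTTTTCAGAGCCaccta
HIST1H2BD: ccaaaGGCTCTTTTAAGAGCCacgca
HIST1H2BH: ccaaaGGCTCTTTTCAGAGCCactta
HIST1H4E: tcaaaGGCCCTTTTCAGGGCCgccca
HIST1H4J: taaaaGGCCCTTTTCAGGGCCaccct

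The shortest annotated transcript with these letters ended 39 bases after the stem-loop in HIST1H2AI and 39 in HIST1H2BD. It ran on for 1640 bases in HIST1H2BH and for 1022 in HIST1H4E. Of the 75 members 73 matched a GENCODE 29 transcript, 39 by gene identifier and 34 by symbol alone. Transcripts with the symbols of the other 2, HIST2H2AA3 and HIST2H2BD, were counted under their copies HIST2H2AA4 and HIST2H2BC, whose identifiers they carry. In 34 of the 73 the annotation stopped at the stop codon, which leaves no stem-loop to be found. For 9 the transcript ended near the stem-loop, for 23 it ran on for more than 100 bases, and for 7 these letters were not in it. Of the 23 that ran on, 18 held a polyadenylation hexamer, AATAAA or ATTAAA, after the stem-loop. So did 2 of the 9 that ended near it, HIST1H2BD and HIST2H2AA4. HIST1H2BD also has a protein-coding transcript without the letters, with 384 bases after the stop codon. Median mean levels were 3.28 FPKM (fragments per kilobase of transcript and per megafragment mapped) for those that stop at the stop codon. They were 7.77 for those that end near the stem-loop, 4.25 for those that run on and 0.000787 for those without the letters. The 7 without the letters ranged from 0 to 8646 FPKM, the highest being HIST1H4C, the most abundant member. The ends in GENCODE 29 need not be those of the deposited rows. That of HIST1H2BH spans 425 bases, while its GENCODE 29 transcript has 2060.

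HIST1H4C, an H4 gene, is shown apart because it carried most of the histone signal. Its deposited row spans 415 bases. Its only transcript of GENCODE 29 is 435 bases long, with 51 after the stop codon, so the end printed here need not be that of the row. The 16 letters were not in this transcript. Capitals mark each A in its last 30 bases.

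HIST1H4C: tgAgAActtcAAAAAAcAAAAAcAAAAAAA

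These 30 bases hold 21 A. Of the 83129 protein-coding transcripts in the annotation, 0.841% had as many or more, against a median of 10. One other member, HIST1H2BG, had such a transcript, with 30 A. This search was chosen after the levels were seen.

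Depth, estimated from the confidence bounds in the files, was 11.8 to 20.6 megafragments (M) for numbered splits and 7.79 to 38.7 M for unnumbered ones, except for 0.128 M in split 247. Genes of all kinds at FPKM 1 or more numbered 3771 to 7671 and 2942 to 4792. The summed FPKM of 10 B cell markers was 4069 to 7868 in the numbered and 1557 to 3512 in the unnumbered splits, and all 10 were detected. Monocyte markers summed to 1.46 to 53.8 and 0.902 to 1.65 FPKM. Erythroid markers stood at or near 0 throughout. The T cell list summed to 3.27 to 239 and 10.3 to 590 FPKM, most of it from the T cell receptor constant gene TRAC. Whether any of these marker differences played a part in the histone values was not tested.

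HIST1H4C stood alone among the members. It ranged from 3527 over a median of 7073 to 8451 FPKM in the numbered splits, and from 7659 over 10432 to 13177 FPKM in the unnumbered splits. The lowest values were those of numbered splits 7 and 8, at 3527 and 4080 FPKM. The sets overlapped slightly: 4 numbered splits lay above unnumbered split 253, and only that 1 unnumbered split lay below the highest numbered split. The means were 6690 ± 1706 and 10601 ± 1782 FPKM (SD, n = 10). On log2(FPKM + 1) the difference, numbered minus unnumbered, was -0.70 (SE 0.14, limma adjusted p = 0.00176). HIST1H4C was the only member called higher in the unnumbered set, where 1.38% of the 10506 tested genes were called. It kept that call in every alternative fit, with differences from -0.94 to -0.55.

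By mean FPKM over all 20 splits HIST1H4C ranked 16 among the 49115 rows kept. Its mean was 60.7 times that of the next member, the linker histone gene HIST1H1C. HIST1H4C supplied 75.2 to 93.8% of the FPKM of all 75 members in the numbered splits and 90.3 to 97.8% in the unnumbered splits. Its coefficient of variation (SD over mean) was 0.255 over numbered and 0.168 over unnumbered splits. Genes of 1000 FPKM or more had medians of 0.234 over 224 genes and 0.266 over 202 genes. As a share of all FPKM in a split it took 0.311 to 0.520% in the numbered and 0.617 to 1.07% in the unnumbered splits, and these ranges did not overlap. HIST1H4C lies on chromosome 6, 26104104 to 26104518, in the coordinates of the deposited files, whose genome build was not given in the sources used here. It shared no window of 50 bases with another member's transcript.

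**Figure D1:**
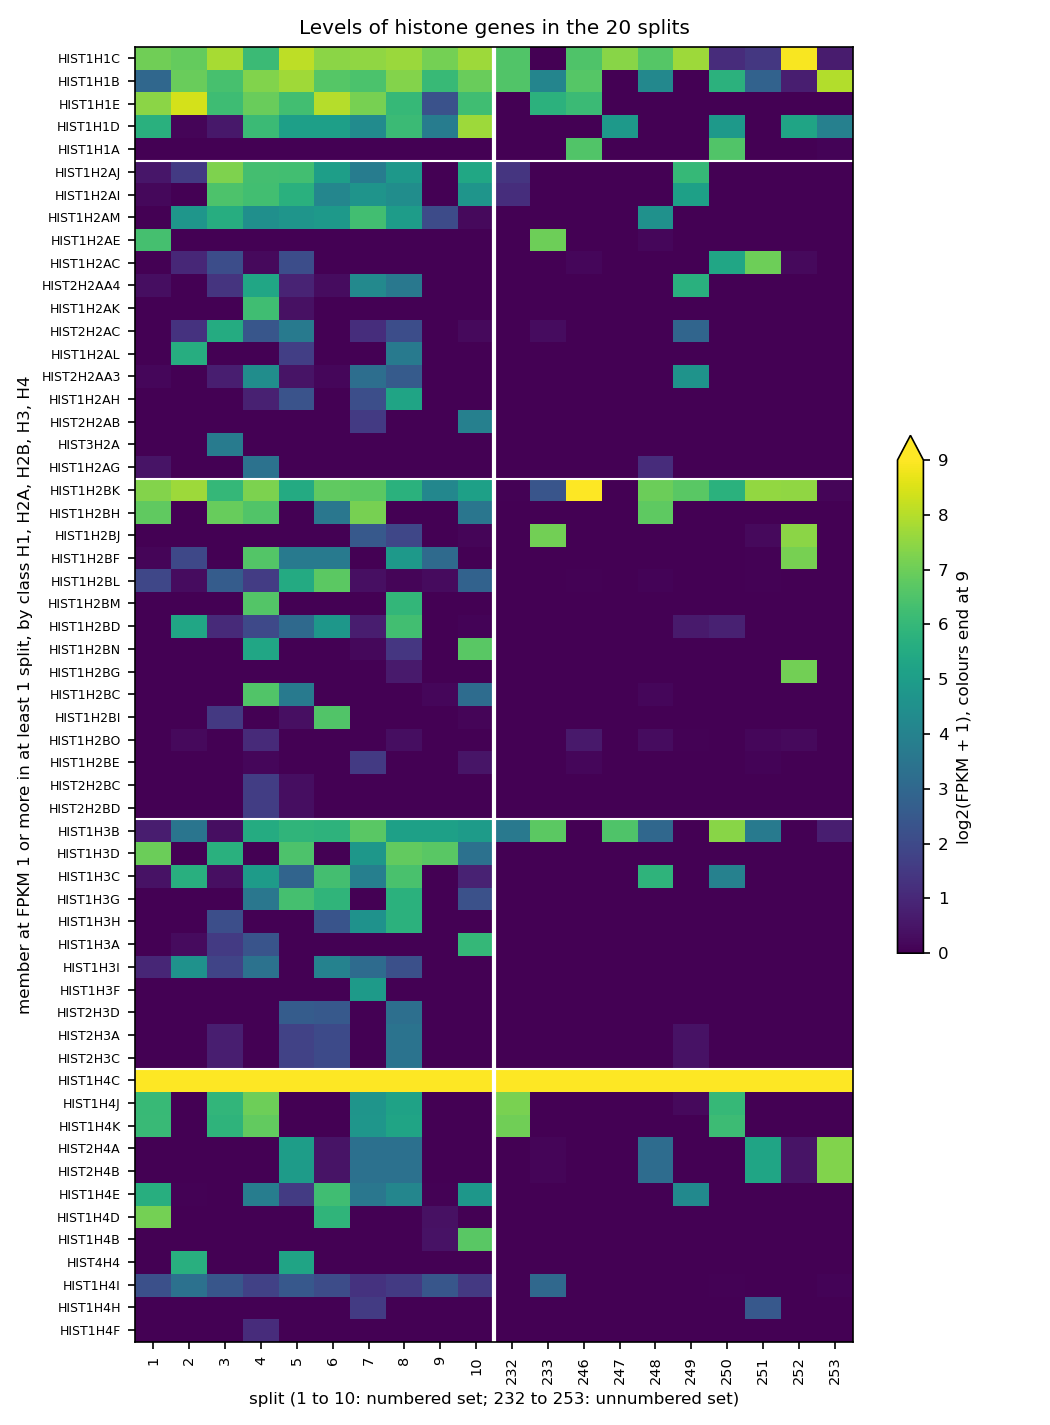
Levels of the 57 members that reached FPKM 1 in at least 1 split, as log2(FPKM + 1) by colour, with members in rows by class and the 20 splits in columns (numbered left, unnumbered right of the white line). HIST1H4C is bright in all 20 columns, and other rows show filled and empty cells side by side within a set.

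Of the other 74 members, 56 reached FPKM 1 in at least 1 split, and none of these did so in all 20. Their 740 values in the numbered set held 441 zeros and 228 values of FPKM 1 or more. In the unnumbered set 626 of 740 were 0 and 68 were 1 or more. A value that was present was often backed by many fragments. Among values of 1 or more the median number of fragments implied by the bounds was 148 for numbered and 650 for unnumbered splits. HIST1H1C had 3969 fragments in unnumbered split 249 and none in split 233. HIST1H3B, an H3 gene, had 1390 in split 250 and none in split 249. Fragment numbers are estimates from single-transcript bounds, and were whole within 0.1 for 60.7% of the 433 member values above 0.

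More members were detected in the numbered than in the unnumbered splits. The number of members at FPKM 1 or more was 15, 17, 23, 34 and 29 in numbered splits 1 to 5 and 25, 30, 34, 11 and 20 in splits 6 to 10. It was 8, 8, 6, 4 and 11 in unnumbered splits 232, 233, 246, 247 and 248, and 9, 11, 9, 7 and 5 in splits 249 to 253. The lowest numbered split, 9, equalled the highest unnumbered splits, 248 and 250, at 11 members. No test was made, since the members were chosen with results known. Without run a, a set of numbered splits (5 to 8) whose experiment numbers lie apart from the rest, the mean was 20 against 7.8 members. Of the 57 members detected at all, 48 were seen in more numbered than unnumbered splits, 2 in fewer and 7 in equal numbers. That is 84.2% in more numbered splits, and for all 14066 kept rows detected anywhere the share was 55.8%. The 57 include HIST2H2AC, a row with status LOWDATA in every split, a kind left out of the 14066. Near-identical copies, such as HIST2H4A and HIST2H4B, count as separate members here.

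**Figure D2:**
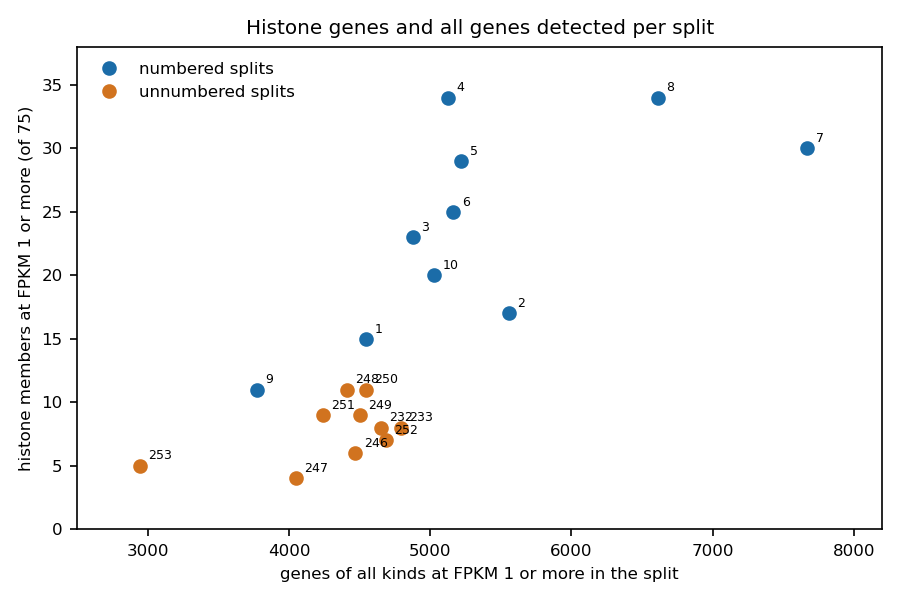
Members at FPKM 1 or more (of 75, vertical axis) against genes of all kinds at FPKM 1 or more (horizontal axis), 1 point per split, labelled with the split. Numbered splits lie at 11 to 34 members and unnumbered splits at 4 to 11.

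Of the members, 28 were seen in the numbered set alone, 27 in both sets and 18 in neither. Of these 18, 11 were at 0 in all 20 splits. The same counts were not made for all genes. Detected genes of all kinds were also more numerous in the numbered set, with medians of 5146 and 4486.5 per split. The lean of the member counts to the numbered set is therefore not to be read as particular to histone genes. HIST1H1A, a linker histone gene, and HIST1H2BG, an H2B gene, were seen in the unnumbered set alone. HIST1H1A reached 93.7 FPKM in split 246 and 93.2 FPKM in split 250, with 1538 and 1705 fragments, and was listed at 0 in all 10 numbered splits. HIST1H2BG reached 134 FPKM in split 252 and was 0 in the other unnumbered splits. Both were tested and neither was called.

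Of the 75 members, 44 passed the filter of a mean FPKM of 1 and were tested with limma among 10506 genes. A further 29 lay below the filter, and 2, HIST2H2AC and HIST1H2AD, had status LOWDATA in every split. Of the 44, 19 reached a mean of 1 in the numbered set alone and 4 in the unnumbered set alone, so the filter let many through on the set where they were high. The test called 4 of them higher in the numbered set, beside 3.93% of all tested genes, and 1 higher in the unnumbered set. The 4 were HIST1H1E, HIST1H3D, HIST1H2AM and HIST1H4I, 1 from each class but H2B. HIST1H3D and HIST1H4I were among those that reached a mean of 1 in the numbered set alone, with unnumbered means of 0 and 0.72 FPKM. The median difference over all tested genes was 0.35 on the log2 scale, so single values are to be read against that shift.

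**Figure D3:**
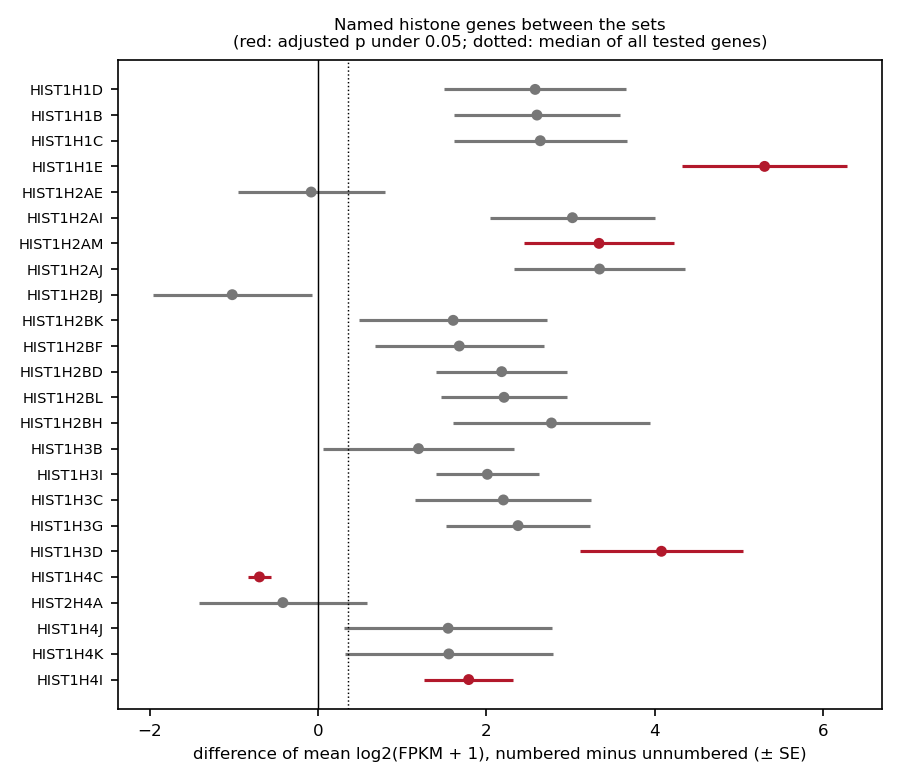
Difference of mean log2(FPKM + 1), numbered minus unnumbered (horizontal axis), with its standard error for the 24 named members in the order of their class. The 5 red members have an adjusted p under 0.05: HIST1H4C at -0.70 and 4 others between 1.79 and 5.31, and the dotted line is the median of all tested genes at 0.35.

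In class H1, the linker histones, 1 gene passed. HIST1H1E, which encodes linker histone H1.4, ranged from 3.83 over 98.8 to 343 FPKM across the numbered splits, all of them above 0. In the unnumbered set it was listed at 0 in 8 splits and stood at 53.6 FPKM in split 233 and 69.8 FPKM in split 246. Numbered splits 8 and 9, at 64.3 and 3.83 FPKM, lay within the reach of these 2 splits, so the sets overlapped. HIST1H1E differed by 5.31 (SE 0.98, limma adjusted p = 0.000728), and by 5.06 (adjusted p = 0.0207) without run a. It was called in each of the 31 alternative fits.

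The other H1 members did not pass. HIST1H1C, which encodes H1.2, ranged from 69.9 over 177 to 276 FPKM in the numbered splits and from 0 over 92.3 to 479 FPKM in the unnumbered splits. It was present in all 10 numbered splits and at FPKM 1 or more in 8 unnumbered ones, and its difference was 2.64 (SE 1.03, limma adjusted p = 0.163). HIST1H1B, which encodes H1.5, stood between 6.94 and 210 FPKM (median 110) in the numbered set, and between 0 and 247 FPKM (median 16.8) in the other (difference 2.60, limma adjusted p = 0.151). HIST1H1D, which encodes H1.3, had medians of 32.9 and 0 FPKM (difference 2.58, limma adjusted p = 0.212). HIST1H1T, the testis linker histone gene, was 0 in all 20 splits. The summed H1 level was 221 to 605 FPKM in the numbered splits and 7.84 to 517 FPKM in the unnumbered splits, and the sets overlapped.

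Which H1 gene led differed between splits. HIST1H1C was the most abundant H1 gene in 6 numbered and 5 unnumbered splits. HIST1H1E led in 3 numbered splits and HIST1H1B in 1. In the unnumbered set HIST1H1B led in 3 splits, and HIST1H1A and HIST1H1E in 1 each.

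In class H2A 1 gene passed. HIST1H2AM, at 27860477 to 27860963 on chromosome 6, ranged from 0 over 25.3 to 77.3 FPKM in the numbered splits. It was listed at 0 in 9 unnumbered splits and stood at 22.2 FPKM in split 248. HIST1H2AM differed by 3.34 (SE 0.89, limma adjusted p = 0.0226). The call was lost without run a (difference 2.40, adjusted p = 0.249). Its row overlaps that of HIST1H3J, and 86.3% of its 50-base windows stand in a HIST1H3J transcript, so reads of the 2 cannot be separated with certainty.

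HIST1H2AJ and HIST1H2AI lay just outside the threshold. HIST1H2AJ ranged from 0 over 29.4 to 151 FPKM in the numbered set and reached 64.2 FPKM in unnumbered split 249 (difference 3.35, SE 1.02, limma adjusted p = 0.0535). HIST1H2AI ranged from 0 over 22.1 to 87.8 FPKM and reached 33.4 FPKM in the same split 249 (difference 3.02, SE 0.98, limma adjusted p = 0.0761). Both were highest in numbered split 3 and absent in split 9. Their transcripts share sequence: 83.7% of the windows of HIST1H2AJ stand in HIST1H2AI, and fragment numbers of both were not whole in several splits, so they are uncertain as separate genes.

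HIST1H2AE showed presence in a single split of each set. Its values were 80.8 FPKM in numbered split 1 and 127 FPKM in split 233 of the unnumbered set, and it was at or near 0 in the other 18. Its difference of -0.08 (limma adjusted p = 0.965) turned to 0.34 without run a. The summed H2A level was 3.17 to 349 FPKM in the numbered and 0 to 180 FPKM in the unnumbered splits, with medians of 114 and 13.3. Of the 17 members 14 were detected in the numbered set against 9 in the other, and 5 unnumbered splits lay above the lowest numbered split.

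No H2B gene was called, although class H2B has the most members. HIST1H2BK ranged from 16.8 over 84.6 to 205 FPKM in the numbered splits and from 0 over 78.4 to 568 FPKM in the unnumbered splits (difference 1.61, SE 1.11, limma adjusted p = 0.496). It was the leading H2B gene in 5 numbered and 6 unnumbered splits. Its row spans that of HIST1H4I. HIST1H2BH reached 141 FPKM in the numbered set, where it was detected in 6 splits, and 109 FPKM in unnumbered split 248 alone (difference 2.77, limma adjusted p = 0.214).

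HIST1H2BJ and HIST1H2BF were high in split 252, at 173 and 142 FPKM. HIST1H2BJ also stood at 134 FPKM in split 233 and never passed 4.65 FPKM in the numbered set (difference -1.02, limma adjusted p = 0.605). HIST1H2BF ranged from 0 over 5.25 to 95.3 FPKM in the numbered set and was at or near 0 in the other 9 unnumbered splits (difference 1.68, limma adjusted p = 0.435). HIST1H2BG too was seen in split 252, which had 7.79 M fragments.

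HIST1H2BL was the only tested member whose ranges did not overlap, where 2.0% of all tested genes did not. It ranged from 0.0928 over 2.42 to 106 FPKM in the numbered set and from 0 to 0.0601 FPKM in the unnumbered set. The lowest numbered value, in split 8, and the highest unnumbered value each rest on 0.33 of a fragment, so the gap between them is under 1 fragment. Its difference was 2.21 (SE 0.75, limma adjusted p = 0.0935), and the exact rank-sum test called it (adjusted p = 0.000542). HIST1H2BD ranged from 0 over 2.04 to 77.1 FPKM and from 0 to 0.754 FPKM (difference 2.18, limma adjusted p = 0.121). Summed H2B levels were 24.8 to 576 FPKM in the numbered and 0 to 629 FPKM in the unnumbered splits. The highest H2B sum of all belonged to unnumbered split 252, while 3 unnumbered splits stood near 0.

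In class H3 1 gene passed, and the summed level was 61.0 to 372 FPKM in the numbered and 0 to 181 FPKM in the unnumbered splits, with overlap. HIST1H3D, at 26197068 to 26199521 on chromosome 6, was at FPKM 1 or more in 7 numbered splits: 126 in split 1, 51.1 in split 3, 89.0 in split 5, 26.0 in split 7, 115 in split 8, 102 in split 9 and 9.17 in split 10. It was at or near 0 in numbered splits 2, 4 and 6 and listed at 0 in all 10 unnumbered splits. The difference on log2(FPKM + 1) was 4.08 (SE 0.97, limma adjusted p = 0.00945), a size that the pseudocount sets and that is no bound. It was 3.79 (adjusted p = 0.0377) without run a, and the call went when run a entered as a covariate (adjusted p = 0.0651). The row overlaps that of HIST1H2AD.

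By mean over all 20 splits HIST1H3B was the most abundant H3 gene, though HIST1H3D had the higher mean in the numbered set. HIST1H3B had 0.265 over 33.4 to 103 FPKM in the numbered and 0 over 9.31 to 167 FPKM in the unnumbered splits (difference 1.19, SE 1.13, limma adjusted p = 0.605). It led the class in 5 unnumbered splits and HIST1H3D led it in 5 numbered splits. HIST1H3C reached 85.3 FPKM in the numbered set and was seen in unnumbered splits 248 and 250, at 56.6 and 14.4 FPKM (limma adjusted p = 0.293). HIST1H3G and HIST1H3I were listed at 0 in all unnumbered splits. HIST1H3G was detected in 5 numbered splits, up to 79.7 FPKM (limma adjusted p = 0.126), and HIST1H3I in 6, up to 22.9 FPKM (limma adjusted p = 0.0555). Of the 14 H3 members 11 were detected in the numbered set, while HIST1H3B and HIST1H3C were the 2 seen in the unnumbered set.

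The H4 genes other than HIST1H4C were also listed at 0 in many splits. HIST1H4I was the exception in the numbered set, where it was at FPKM 1 or more in all 10 splits but low, from 1.47 over 3.43 to 9.27 FPKM. In the unnumbered set it stood at 7.16 FPKM in split 233 and at or near 0 in the other 9. HIST1H4I differed by 1.79 (SE 0.53, limma adjusted p = 0.0474), but the call was lost in 24 of 30 alternative fits, among them TPM (adjusted p = 0.0815) and the fit without run a (adjusted p = 0.108). Its row lies within that of HIST1H2BK, its fragment numbers were not whole, and no strand was stated for the counting.

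HIST1H4J and HIST1H4K are near-identical copies, and all windows of HIST1H4K stand in HIST1H4J. Their values differed by at most 10.8% in the 7 splits where either was seen, and they are reported as uncertain. HIST1H4J stood at 127 FPKM in numbered split 4 and 144 FPKM in split 232 (difference 1.55, limma adjusted p = 0.566). HIST2H4A, which is copied in HIST2H4B on chromosome 1, was highest in unnumbered split 253, at 157 FPKM, and reached 31.5 FPKM in the numbered set. Its difference of -0.42 (limma adjusted p = 0.841) turned to 0.21 without split 253. Without HIST1H4C, the H4 sum was 5.08 to 326 FPKM in the numbered and 0 to 313 FPKM in the unnumbered splits.

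**Figure D4:**
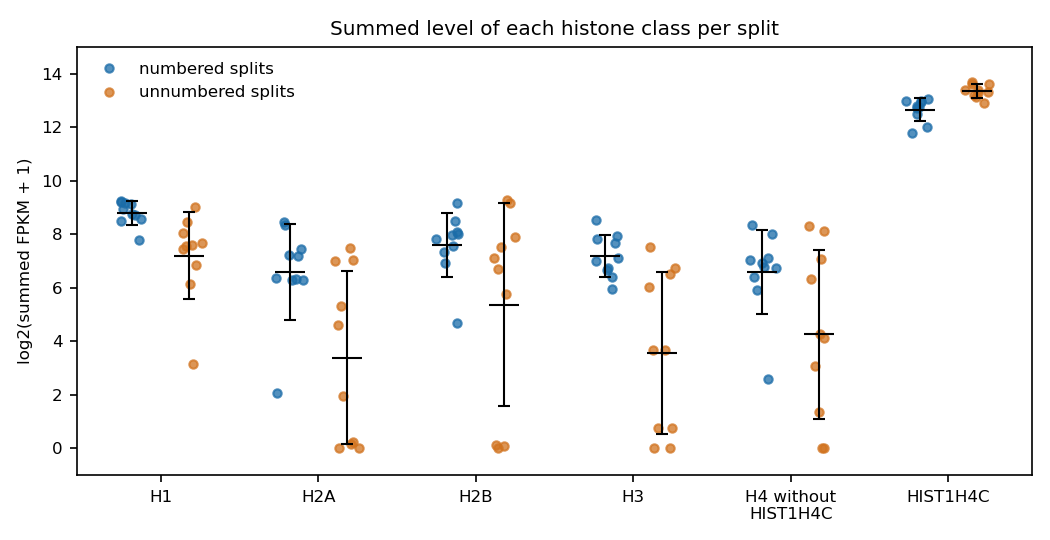
Summed level of each class per split as log2(FPKM + 1), with H4 drawn without HIST1H4C and that gene on its own. Points are splits (numbered left, unnumbered right), and black bars are the mean and SD over 10 splits. HIST1H4C is the only column where the unnumbered mean lies higher.

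Between the sets, the difference of mean log2(sum + 1) was 1.61 for H1, 3.22 for H2A, 2.24 for H2B, 3.62 for H3 and 2.32 for H4 without HIST1H4C. With HIST1H4C included, H4 differed by -0.68. The SD of the log2 sum was 0.45 for H1 and 0.79 for H3 over numbered splits, against 1.63 and 3.01 over unnumbered ones. Without run a the differences were 1.47 for H1, 2.93 for H2A, 2.10 for H2B, 3.08 for H3 and 2.21 for H4 without HIST1H4C. Where medians replaced means, that of H2B was 0.97. Summed over all members but HIST1H4C, the level was 389 to 1671 FPKM in the numbered splits and 285 to 1147 FPKM in the unnumbered splits. For all 75 members it was 4646 to 9551 and 8235 to 14098 FPKM.

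By cluster, 44 of the 55 HIST1 genes on chromosome 6 were detected in at least 1 split, as were 11 of 15 HIST2 genes and 1 of 4 HIST3 genes on chromosome 1. The single HIST4 gene, HIST4H4 on chromosome 12, was seen in 2 numbered splits. HIST3H2A was seen in numbered split 3 alone. HIST2H3A and HIST2H3C gave equal values in every split where they were seen, as copies with all windows in common.

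Members of between 10 and 200 FPKM varied about as much as other genes of that level in the numbered set, with a median coefficient of variation of 1.27 over 24 members beside 1.38 over 4868 genes. In the unnumbered set it was 2.22 over 17 members beside 1.61 over 4748 genes. The median number of splits in which such a gene was seen was 6 for members and 6 for all genes in the numbered set, and 2 and 5 in the unnumbered set.

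The promoters of HIST1H1E and HIST1H2AM are shown because both genes were called and their windows differ by class. They come from RefSeq on GRCh38.p14, from 250 bases before the gene's start to 50 after it, at chr6:26156079-26156378 (plus strand) and chr6:27893136-27893435 (minus strand). Capitals mark matches to ATTTGCAT (the octamer bound by OCT1), CCAAT and TATAAA on either strand, in the gene's own direction.

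HIST1H1E: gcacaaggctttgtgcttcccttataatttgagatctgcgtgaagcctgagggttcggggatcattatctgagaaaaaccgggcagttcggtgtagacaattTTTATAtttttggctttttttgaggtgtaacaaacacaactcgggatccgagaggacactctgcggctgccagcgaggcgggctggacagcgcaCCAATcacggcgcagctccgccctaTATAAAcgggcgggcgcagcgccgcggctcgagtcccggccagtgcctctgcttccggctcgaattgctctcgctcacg
HIST1H2AM: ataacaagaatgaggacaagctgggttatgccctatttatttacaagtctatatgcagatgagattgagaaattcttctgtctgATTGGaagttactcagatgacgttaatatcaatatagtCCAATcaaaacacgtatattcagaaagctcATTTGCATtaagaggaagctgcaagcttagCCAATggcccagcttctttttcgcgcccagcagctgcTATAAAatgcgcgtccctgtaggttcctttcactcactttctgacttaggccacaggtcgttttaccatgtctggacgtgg

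In HIST1H1E a CCAAT began at position -54 and a TATAAA at -29 from the start. In HIST1H2AM an octamer began at -98, a CCAAT at -68 and a TATAAA at -31. Of the 75 members 65 had a promoter in the table. The octamer stood in 11 of 16 H2A and 14 of 18 H2B promoters, in 1 of 12 H3 promoters and in none of the 6 H1 and 13 H4 promoters, beside 1.80% of all 27305 promoters. CCAAT stood in all H1, H2A, H2B and H3 promoters of the table and in 3 of the 13 for H4, beside 35.7% of all. TATAAA stood in 43 of the 65, beside 3264 of all 27305. Windows of 23 members overlap that of a member of another class, among them 17 of the 26 with an octamer, so the same letters can count in 2 classes. The HIST1H3D window, the 1 H3 window with an octamer, is also that of the H2A gene HIST1H2AD. A match describes letters only.

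Genes that act on histone mRNA were looked at beside the members. None of the 21 tested regulators of histone mRNA was called, and their median difference was 0.23 beside 0.35 for all genes. CPSF3, the nuclease that cuts histone mRNA, ranged from 0.026 over 25.4 to 387 FPKM in the numbered and from 30.7 over 171 to 328 FPKM in the unnumbered splits (difference -3.09, limma adjusted p = 0.0842). LSM1 (limma adjusted p = 0.923) and ZCCHC11 (adjusted p = 0.146), which take part in histone mRNA decay, did not pass. SLBP, singled out here after its values were seen, had medians of 1.30 and 3.87 FPKM (limma adjusted p = 0.605).

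Among 9 tested genes of variant histones, most of which are expressed through the cell cycle from polyadenylated mRNA, 1 was called, and it was lower in the numbered set. H2AFZ, which encodes H2A.Z, ranged from 841 over 1310 to 1820 FPKM in the numbered and from 2607 over 3877 to 5886 FPKM in the unnumbered splits, without overlap. Its difference was -1.64 (SE 0.15, limma adjusted p = 4.26e-08). H3F3B, which encodes H3.3, had medians of 367 and 733 FPKM (difference -0.72, limma adjusted p = 0.179). The median of the list was -0.78.

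Among 17 tested histone chaperones 1 was called. ANP32E, which removes H2A.Z from nucleosomes, ranged from 64.5 over 186 to 383 FPKM in the numbered and from 848 over 1105 to 1297 FPKM in the unnumbered splits (difference -2.76, SE 0.34, limma adjusted p = 2.48e-06), and the sets did not overlap. NAP1L1, a carrier of H2A and H2B, had medians of 728 and 430 FPKM (difference 0.88, limma adjusted p = 0.107). The median of the list was -0.31.

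The 22 tested S phase genes had a median of -0.75, and 1 was called. FEN1, which trims flaps of newly made DNA, was detected in 4 numbered and 9 unnumbered splits, with medians of 0.308 and 55.8 FPKM (difference -3.71, SE 1.07, limma adjusted p = 0.0393). PCNA, the sliding clamp of DNA replication, had medians of 257 and 394 FPKM (difference -0.19, limma adjusted p = 0.883). RPA2 and CDC6 did not pass (limma adjusted p = 0.385 and 0.359). S phase genes summed to 623 to 1855 FPKM in the numbered and 1306 to 3075 FPKM in the unnumbered splits. That sum leaves out 3 of the 27 listed genes, RRM1, RFC4 and TK1, whose rows failed the status filter. The sum of the histone members other than HIST1H4C had the higher median in the numbered set. With HIST1H4C included, the sum of all members had medians of 8368 FPKM in the numbered and 10995 FPKM in the unnumbered splits. The part of S phase genes in the histone values was not tested.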

How the data were processed

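The 20 deposited tables hold FPKM with confidence bounds and a status, made by the authors. The submitters' processing notes list Cufflinks 2.0.2 and TopHat 1.4.1, without their roles. Counting strand and genome build were not given in the sources used here. Tables were joined by gene identifier. Rows with status LOWDATA in every library (5797) or FAIL in any (128) were left out, and 49115 were kept. Class sums include all members of a class. Genes with a mean FPKM of 1 or more were tested with limma 3.58.1 (trended variance, R 4.3.3) on log2(FPKM + 1), with Benjamini-Hochberg adjustment over 10506 genes and a threshold of 0.05. Fold changes on this scale understate those of low genes. Fragment numbers and depth were estimated from the bounds, with 10 mitochondrial genes for depth (largest residual 0.963%).

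The members and lists were chosen with earlier results of these data known. Named were, per class, the 4 most abundant members, the 2 with the smallest p and all called, and likewise, per list, the 2 most abundant genes, the 2 with the smallest p and all called. Alternatives were other pseudocounts, filters and scalings, an exact rank-sum test, and fits without run a or without single splits. The other 42 samples were not analysed here.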

Additional observations from a re-analysis of the deposited data

Results flagged for a closer look

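The gap between the highest or lowest split and the next one, as a share of the range of the set's 10 splits, passed Dixon's 95% value for 10 samples in 22 of 57 sets of values examined, over the named members, the class sums and the number of members detected. Chance flags about 1 in 20 where values follow a normal distribution. Many of the values examined here are 0, so that rate does not apply and the number of flags is not to be read against it. A lone value above zeros has a gap of the whole range, as for HIST1H2AE in the numbered set. In all 22 the split that stood apart was the highest of its set, and no class sum and no number of members detected stood out.

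Among H1 genes, HIST1H1B stood at 247 FPKM in unnumbered split 253, above 97.6 in the next split. HIST1H1C stood at 479 FPKM in unnumbered split 252, above 206. HIST1H1D stood at 204 FPKM in numbered split 10, above 70.0.

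Among H2A genes, HIST1H2AE stood at 80.8 FPKM in numbered split 1 and at 127 FPKM in unnumbered split 233. HIST1H2AI and HIST1H2AJ stood at 33.4 and 64.2 FPKM in unnumbered split 249. HIST1H2AJ also stood out in numbered split 3, at 151 FPKM. HIST1H2AM stood at 22.2 FPKM in unnumbered split 248.

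Among H2B genes, HIST1H2BD stood at 77.1 FPKM in numbered split 8 and HIST1H2BL at 106 FPKM in numbered split 6. HIST1H2BF stood at 95.3 FPKM in numbered split 4 and at 142 FPKM in unnumbered split 252. HIST1H2BH stood at 109 FPKM in unnumbered split 248, and HIST1H2BK at 568 FPKM in unnumbered split 246.

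Among H3 and H4 genes, HIST1H3C stood at 56.6 FPKM in unnumbered split 248. HIST1H4I stood at 9.27 FPKM in numbered split 2 and at 7.16 FPKM in unnumbered split 233. HIST1H4J stood at 127 FPKM in numbered split 4 and at 144 FPKM in unnumbered split 232. HIST2H4A stood at 31.5 FPKM in numbered split 5 and at 157 FPKM in unnumbered split 253.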

How the results depend on the processing

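The count of members called higher in the numbered set was 4. It was 7 with a pseudocount of 0.1, 2 with a pseudocount of 10, 2 without run a, 1 with run a as a covariate and 9 with the exact rank-sum test. With single splits left out it was 3 to 6. Over all 10506 tested genes the main fit called 413 higher in the numbered set. That number was 449 and 390 with pseudocounts of 0.1 and 10, 263 of 9826 without run a and 287 with run a as a covariate. It was 706 with the exact rank-sum test and 358 to 464 with single splits left out. The member counts are to be read against these. HIST1H4C stayed the only member called higher in the unnumbered set in every fit, and HIST1H1E was called in each. HIST1H2AM lost its call with a pseudocount of 10, without run a and with run a as a covariate. Of members near the threshold, HIST1H2AJ, HIST1H2BL and HIST1H3I were called with a pseudocount of 0.1. The difference of HIST1H2AE was 0.34 without run a and with run a as a covariate, and -0.72 to 0.62 with single splits left out, the highest without split 233. That of HIST2H4A was 0.22 without splits 9, 247 and 253 and -0.84 to 0.21 with single splits left out, the highest without split 253. The mean number of members detected differed by 16 between the sets at FPKM 1 and by 9.9 at FPKM 10. Class differences kept their sign in all alternatives. The cause of these shifts was not tested. No paired analysis was possible because the unnumbered splits carry no split number. Depth limits split 247, at 0.128 M fragments, where values near 1 FPKM rest on less than 1 fragment per kilobase.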
